A study of Mus musculus with 6 samples.

Results

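Splenic CD4+ dendritic cells (DC) of wild-type mice were profiled on 3 arrays, and the level, rank and spread of each gene within those 3 arrays are described here. The 3 were taken from a series of 6 by their labels, which give genotype Runx3 +/+, male sex, an age of 6 weeks and spleen as the source. The other 3 arrays, of Runx3-/- littermates that lack the transcription factor throughout the body, were not used. Each wild-type array is numbered by its litter (WT1, WT2 and WT3), so that the arrays differ by litter as well as by animal. Whether each holds RNA of 1 animal is not given in the labels. The study's figure caption for this experiment names 3 Runx3-deficient and wild-type mice. Cells were magnetically enriched and then sorted by flow cytometry as CD11c+ MHCII+ cells separated by CD4 and CD8; the labels also mention Esam, a surface molecule of one DC subset, without saying how it was used in the gate. Of 35399 probe sets on the array, 21789 carried exactly 1 gene symbol, and the probe set with the highest mean over the 3 arrays was kept for each gene, which left 19938 genes. All values are log2 signal, and ± stands for the SD over the 3 arrays (n = 3).

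Classical DC take up proteins, cut them in acidic vesicles and show the peptides on MHC molecules to T cells. In the mouse spleen a larger subset carries CD4, CD11b and SIRPα and depends on IRF4, RBPJ and Notch2, while a smaller subset carries CD8α, XCR1 and CLEC9A and depends on IRF8 and BATF3. Splenic CD11b+ DC are further divided by Esam into a Notch2-dependent high fraction and a low fraction with monocyte-like genes.

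A gene was called above background when its signal reached 6.5, the background level named in the study's methods, in each of the 3 arrays. By that rule 9329 of 19938 genes (46.8%) were above background, 10219 were below it in all 3 arrays, while 202 reached it on 1 array and 188 on 2. Counts of list members above background, given below, are to be read against that 46.8%. The arrays resembled each other closely, with Pearson's r across genes between 0.995 and 0.997 for the 3 pairs. WT3 lay somewhat farther from the others, with r of 0.996 to WT1 and 0.995 to WT2, against 0.997 between WT1 and WT2. Genes above background that differed by over 1 numbered 36, 68 and 24 for these pairs. Among genes above background the median SD was 0.09. As a check of the level, olfactory and vomeronasal receptor genes, which are used in sensory neurons, were above it for 15 of 1179 genes. Taste receptor genes were above it for 0 of 37, keratin-associated protein genes for 6 of 44 and immunoglobulin segments for 4 of 10. Signal on an array also depends on how well each probe binds, so the percentile of a gene (the share of the 19938 genes with a lower mean) describes its place in the array signal and is not a count of transcripts.

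The top of the array signal was made of structural, translational and antigen-presentation genes. B2m, the light chain of MHC class I, gave 13.98, 13.94 and 13.99. Actb, which encodes cytoplasmic actin, gave 13.95, 13.98 and 13.97 in WT1, WT2 and WT3. The SD was at most 0.03 for both genes, which ranked 2 and 3. The 20 highest genes further held H2-Aa, H2-Ab1, Cd74 and H2-Eb1 of the MHC class II system, the actin-binding Tmsb4x, the granule proteoglycan core Srgn, the lysosomal lipid-transfer protein Gm2a, the GTPase Rhoa, the ubiquitin-conjugating enzyme Ube2d3, Tpt1, the elongation factor Eef1a1, the ribosomal genes Rps6, Rpl21 and Rpl10, the small nuclear RNA Rn7sk, and the mitochondrially encoded COX2 and ND3. Mean signal over these 20 genes ran from 13.43 to 13.98. Rank 1 belonged to Baiap2l1, whose 3 probe sets disagreed, with means of 5.10, 12.77 and 13.98. Both bright Baiap2l1 probe sets also list the accession of 18S ribosomal RNA, so this value cannot be read as Baiap2l1 mRNA. Probe set numbers on this array follow the genome, and for 8 of the 20 genes the kept probe set was numbered among genes of another chromosome, as it was for 31 of the 100 highest genes and for 1.43% of all genes. Rps6, Rpl21, Rpl10, Tpt1, Ube2d3, Rhoa and COX2 are among these, and signal for such genes may be shared with near-identical copies elsewhere in the genome.

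The MHC class II pathway list was above background in all 19 of its 19 measured members. Its median percentile was 98.2, against 80.3 for the list of DC transcription factors. The α chain gene H2-Aa gave 13.75, 13.77 and 13.71. Its β chain partner H2-Ab1 gave 13.68, 13.64 and 13.59. Values for H2-Eb1 were 13.45, 13.45 and 13.40. These 3 chain genes varied between arrays by an SD of at most 0.05. Cd74, the invariant chain that guards the groove until the endosome, was 13.64 ± 0.03, and Ifi30, the reductase that opens disulfide bonds of antigens, was 13.26 ± 0.01. Editing of the bound peptide is done by H2-DM and held back by H2-O. The β chain genes of H2-DM, H2-DMb1 and H2-DMb2, were not analysed here. H2-DMa was 12.39 ± 0.19, H2-Oa was 12.14 ± 0.17 and H2-Ob was 12.95 ± 0.14. Ciita, the master coactivator of these genes, was 12.01 ± 0.07 at percentile 98.2. Its DNA-bound partners had lower percentiles, at 89.9 for Rfx5, 66.5 for Rfxank and 59.2 for Rfxap. The proteases that trim the invariant chain were also present, with Ctss at 11.98 ± 0.04. Marchf1, the ligase that removes surface MHC class II in resting DC, was 11.06 ± 0.06.

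Promoters of MHC class II genes share an X box, bound by the RFX complex and CREB, and a Y box, an inverted CCAAT element bound by NF-Y. RefSeq windows of 250 bases before to 50 bases after the gene start (GRCm38.p6) were matched for 14 of the 19 list members. Those of 5 class II chain genes that held a box, and of B2m, are printed to show the boxes in place. The window of H2-DMa, a further chain gene, held none of the 3 motifs and is not printed. H2-Eb2, an additional β chain gene, was 12.77 ± 0.03 at percentile 99.5. Capitals mark GATTGG (Y box core), AACNGATG (X box core) and TGACGT (core of the CREB site), searched on both strands. The H2-Aa window is chr17:34287774-34288073 on the minus strand, that of H2-Eb1 is chr17:34305617-34305916, that of H2-Eb2 is chr17:34325425-34325724, that of H2-Ob is chr17:34238655-34238954, that of H2-Oa is chr17:34092129-34092428 and that of B2m is chr2:122147437-122147736, the last 5 on the plus strand.
H2-Aa: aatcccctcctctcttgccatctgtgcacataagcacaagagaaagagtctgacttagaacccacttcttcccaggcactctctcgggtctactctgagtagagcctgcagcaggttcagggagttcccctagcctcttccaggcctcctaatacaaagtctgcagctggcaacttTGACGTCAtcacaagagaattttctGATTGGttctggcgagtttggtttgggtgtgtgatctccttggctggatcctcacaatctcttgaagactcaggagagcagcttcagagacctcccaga
H2-Eb1: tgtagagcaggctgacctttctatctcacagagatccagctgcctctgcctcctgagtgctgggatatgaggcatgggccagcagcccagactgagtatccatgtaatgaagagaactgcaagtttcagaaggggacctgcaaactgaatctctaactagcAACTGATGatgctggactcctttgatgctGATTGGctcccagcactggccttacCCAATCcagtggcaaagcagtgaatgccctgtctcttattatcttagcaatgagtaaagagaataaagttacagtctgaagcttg
H2-Eb2: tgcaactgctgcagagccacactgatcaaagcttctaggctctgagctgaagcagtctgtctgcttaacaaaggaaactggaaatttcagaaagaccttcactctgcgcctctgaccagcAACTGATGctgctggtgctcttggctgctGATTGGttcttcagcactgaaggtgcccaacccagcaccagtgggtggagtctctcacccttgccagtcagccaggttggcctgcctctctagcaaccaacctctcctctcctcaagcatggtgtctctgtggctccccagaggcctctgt
H2-Ob: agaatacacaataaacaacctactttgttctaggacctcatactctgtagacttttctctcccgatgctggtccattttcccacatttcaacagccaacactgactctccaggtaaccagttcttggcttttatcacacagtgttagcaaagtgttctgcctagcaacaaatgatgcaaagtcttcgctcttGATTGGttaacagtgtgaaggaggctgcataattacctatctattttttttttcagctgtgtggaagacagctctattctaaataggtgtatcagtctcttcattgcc
H2-Oa: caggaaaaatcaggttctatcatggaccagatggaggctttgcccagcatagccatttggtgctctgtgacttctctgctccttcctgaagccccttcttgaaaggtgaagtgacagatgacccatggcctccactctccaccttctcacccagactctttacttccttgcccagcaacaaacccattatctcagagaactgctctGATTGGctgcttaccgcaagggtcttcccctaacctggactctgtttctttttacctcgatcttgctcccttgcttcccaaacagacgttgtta
B2m: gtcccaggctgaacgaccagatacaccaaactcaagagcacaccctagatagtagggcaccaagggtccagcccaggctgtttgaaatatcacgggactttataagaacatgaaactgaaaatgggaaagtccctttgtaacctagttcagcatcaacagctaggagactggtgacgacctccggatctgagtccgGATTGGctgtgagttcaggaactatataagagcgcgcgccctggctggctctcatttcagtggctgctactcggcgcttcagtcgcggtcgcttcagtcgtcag

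Each of the 6 printed windows, which were chosen for their boxes, held GATTGG, with the first match starting between 44 bases (H2-Oa) and 60 bases (H2-Eb1) before the gene start in 5 of them and further away in H2-Eb2. H2-DMa had no match, and over the whole class II list 7 of 14 windows held it, and so did 16.6% of the windows of all 27025 genes in the table. AACNGATG was found in H2-Eb1, in H2-Eb2 and in the cathepsin gene Ctss, against 2.33% of all genes. In H2-Eb1 and H2-Eb2 it stood 21 bases before the Y box. The H2-Aa window held no AACNGATG but 2 overlapping TGACGT matches on opposite strands, 17 bases before the Y box, and 7.64% of all genes held this core. The letters were chosen with these sequences in view, and a match is a description of the window, not evidence of binding.

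Genes that define classical DC were all above background. All 25 of 25 members of the classical DC core list passed, with a median percentile of 94.99. Itgax, the CD11c chain used to sort the cells, gave 12.85, 12.83 and 12.80. Id2, a brake on E proteins needed by DC, gave 12.68, 12.95 and 12.70. Values for Flt3, the receptor for the main DC growth factor, were 11.98, 11.78 and 11.93. The spread of all 3 genes was small against their distance from background. Dpp4, the peptidase CD26, was 12.71 ± 0.04, the pioneer factor Spi1 was 12.50 ± 0.05 and Adam23, a membrane protein of DC, was 12.65 ± 0.01. Kit, the stem cell factor receptor, was at percentile 97.5. Zbtb46, the factor that separates classical DC from monocytes and macrophages, gave 9.83, 9.84 and 9.76, at percentile 82.8. Lower in the list stood Irf8 at percentile 70.4, Batf3 at 67.5, Nr4a3 at 62.8 and the sorting nexin gene Snx22 at 60.9.

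**Figure D1:**
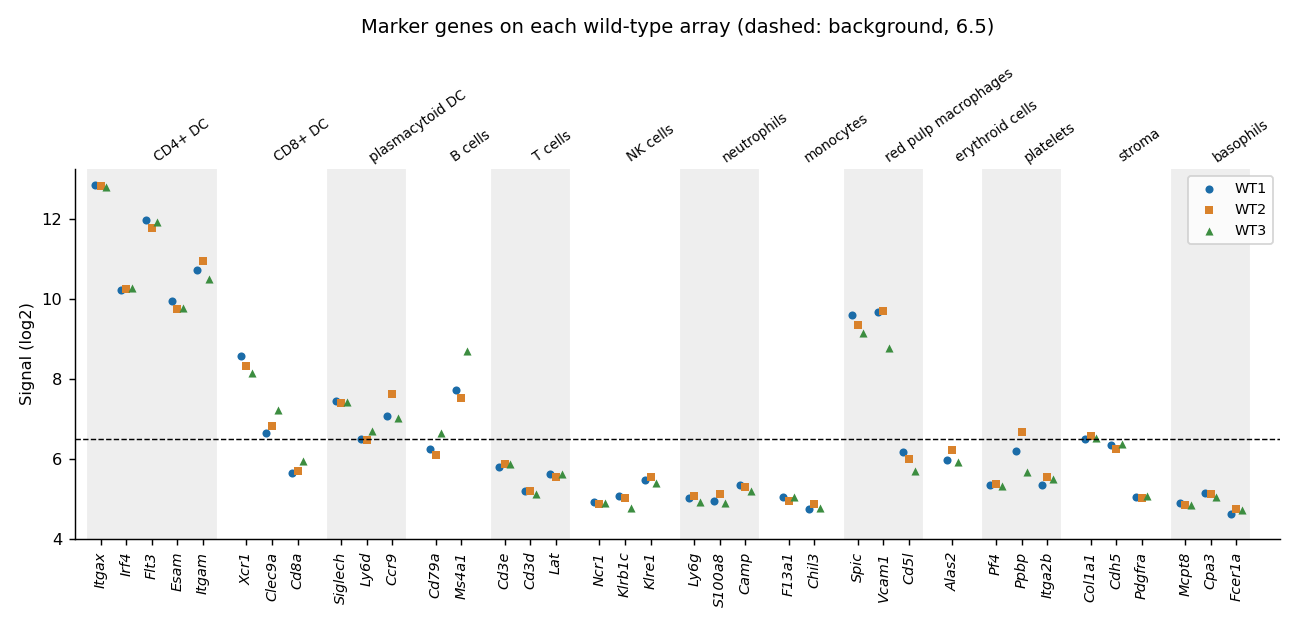
Signal (log2) of the genes fixed as markers of CD4+ DC and of other spleen cell types, with 1 point for each wild-type array and a dashed line at background (6.5). Itgax, Irf4, Flt3, Esam and Itgam lie between 9.75 and 12.85 on every array. Spic and Vcam1 of red pulp macrophages lie between 8.77 and 9.70, and Xcr1, Clec9a, Siglech, Ccr9 and Ms4a1 are also above 6.5 on all 3. The plotted markers of T cells, NK cells, neutrophils, monocytes and basophils lie below it.

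Genes that mark CD4+ DC were above background. The cells were sorted by CD11c and CD4, and the marker lists were chosen with earlier results of these data known. Neither this list nor the classical DC core is therefore an independent check of the label. Of the 22 measured members of this list, 18 are also in another list used here. Cd4 gave 12.80, 12.81 and 12.45, at percentile 99.4. Irf4 was 10.24 ± 0.02, Itgam (CD11b) was 10.72 ± 0.23 and Esam was 9.83 ± 0.11, at percentiles 87.4, 91.7 and 83.0. Every one of the 22 measured CD4+ and Esam-high markers was above background, with a median percentile of 91.7. The C-type lectin Cd209a (DC-SIGN) gave 12.9995, 13.3186 and 12.9219. Cd7 gave 12.90, 12.74 and 12.93, and Sirpa, which receives the CD47 signal, gave 12.63, 12.72 and 12.59. Clec4a4, the inhibitory lectin recognised by the 33D1 antibody, was 12.05 ± 0.14, Runx3 stood at percentile 95.2 and Tbx21 (T-bet) was 9.58 ± 0.18 at percentile 80.1. Epcam, an adhesion molecule, was the exception in stability, at 9.15, 7.52 and 9.05, with WT2 below both other arrays.

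Genes listed for the Esam-low, monocyte-like fraction were also mostly above background. Of 19 measured members 14 passed (73.7%, against 46.8% of all genes). Of the 19 members 14 are also in another list used here, and 4 that passed are in no other. Lyz2 (lysozyme M) gave 12.48, 12.72 and 12.60. The inhibitory lectin Clec4a1 (DCIR4) was 12.45 ± 0.18, Cybb, the catalytic subunit of the phagocyte oxidase, was 11.84 ± 0.14, and Csf1r, the receptor for M-CSF and IL-34, was 11.31 ± 0.28. Ccr2 and Cx3cr1, chemokine receptors of monocytes, stood at percentiles 77.9 and 73.9. Mgl2, Clec10a and Cd14 each crossed background between arrays, and Itgb2l and Slpi were below it in all 3. In bulk RNA a smaller number of cells of one kind and less RNA per cell cannot be told apart, so these values may come from all cells or from some of them.

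Genes of CD8+ DC were above background for 13 of 24 members (54.2%), near the 46.8% of all genes, and the list median fell at percentile 55.7. Wdfy4, needed for cross-presentation, was 12.57 ± 0.09, and Ppt1, a lysosomal thioesterase, was 12.08 ± 0.05. Xcr1, the receptor for XCL1, gave 8.56, 8.33 and 8.14. Clec9a, a receptor for dead cells, gave 6.64, 6.83 and 7.23. Cd8a itself was below background on all 3 arrays at 5.65, 5.70 and 5.95, and so were Itgae, Tlr12, Gpr33 and Cd207. Naaa was 10.93 ± 0.11. Cd24a gave 8.47, 8.23 and 9.50, and Ifi205 (11.04 ± 1.90) differed widely between arrays, as described below. Of the plasmacytoid DC list 13 of 18 members were above background (72.2%, against 46.8% of all genes). It was led by the nucleic acid receptors Tlr9 (11.59 ± 0.07) and Tlr7 (11.55 ± 0.20), which other DC also use. Defining members of the list were lower, with Siglech at 7.43 ± 0.03 and Ccr9 at 7.24 ± 0.34, both above background on all 3 arrays. Ly6d reached 6.5 on 1 array. Whether these transcripts came from all cells or from some of them was not tested.

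Markers of most other spleen cells were near the floor. None of 12 mast cell and basophil genes was above background, and the highest mean among them was 5.62. Of the T cell list 3 of 17 passed, namely Icos (9.84 ± 0.21), Cd5 (9.41 ± 0.20) and Il7r (8.57 ± 0.41), while Cd3e, Cd3d, Cd3g, Cd247 and Lat were below background on every array. Of the NK list 3 of 16 passed, namely the chemokine Ccl5 (11.66 ± 0.18), Klrd1 (CD94, 10.86 ± 0.08) and Fasl (6.92 ± 0.39). Ncr1, Klrb1c, Klre1, Gzma, Gzmb and Prf1 were below it. Neutrophil genes passed for Il1r2 (8.91 ± 0.32) and Csf3r (8.08 ± 0.52) only, of 18 measured, and the granule and calgranulin genes Camp, Ltf, S100a8 and S100a9 did not. Tfrc, the transferrin receptor (12.01 ± 0.31), and Car2 (7.90 ± 0.12) were the erythroid members above background, of 13, with Alas2, Gata1 and Klf1 below. Vwf (7.30 ± 0.16) was the sole platelet member, of 10, and Mbp (8.54 ± 0.02) the sole gene of 27 for unrelated tissues. Mbp transcripts outside the nervous system are known from the Golli part of the same gene.

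B cell, monocyte and red pulp macrophage lists were mixed, with 52.6%, 60% and 84% of their measured members above background. The share over all genes was 46.8%, so the B cell list was near it. Of the B cell list 10 of 19 passed, led by Cd22 (11.42 ± 0.13), Bank1 (10.58 ± 0.22) and Cd79b (9.60 ± 0.20). Ms4a1 (CD20) gave 7.72, 7.52 and 8.70 and Cd79a gave 6.25, 6.09 and 6.64, both highest in WT3 and the latter above 6.5 there alone, and Pax5 and Ebf1 were below background on all 3 arrays. The summed signal of the B cell list was 12.89, 12.99 and 12.98 in WT1, WT2 and WT3 (log2 of the sum). Of the monocyte list 9 of 15 passed, led by Ms4a4c (12.35 ± 0.06) and Plac8 (12.16 ± 0.06), while F13a1, Chil3, Vcan and Fn1 were below background on every array. The red pulp macrophage list had 21 of 25 members above background, 12 of them in no other list used here. Spic, the factor that specifies these macrophages, gave 9.60, 9.34 and 9.14. Vcam1 gave 9.67, 9.70 and 8.77. Both were lowest in WT3, where the iron exporter Slc40a1 was also lowest at 8.43 against 9.48 and 9.42. Cd5l and Cd163, further markers of these cells, were below background on all 3 arrays. Of the stromal list 6 of 20 passed, led by Pecam1 (CD31, 10.41 ± 0.16), and Cdh5 and Pdgfra were below background in all 3. Whether the macrophage and B cell genes came from the sorted DC or from other cells in the sort was not tested.

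**Figure D2:**
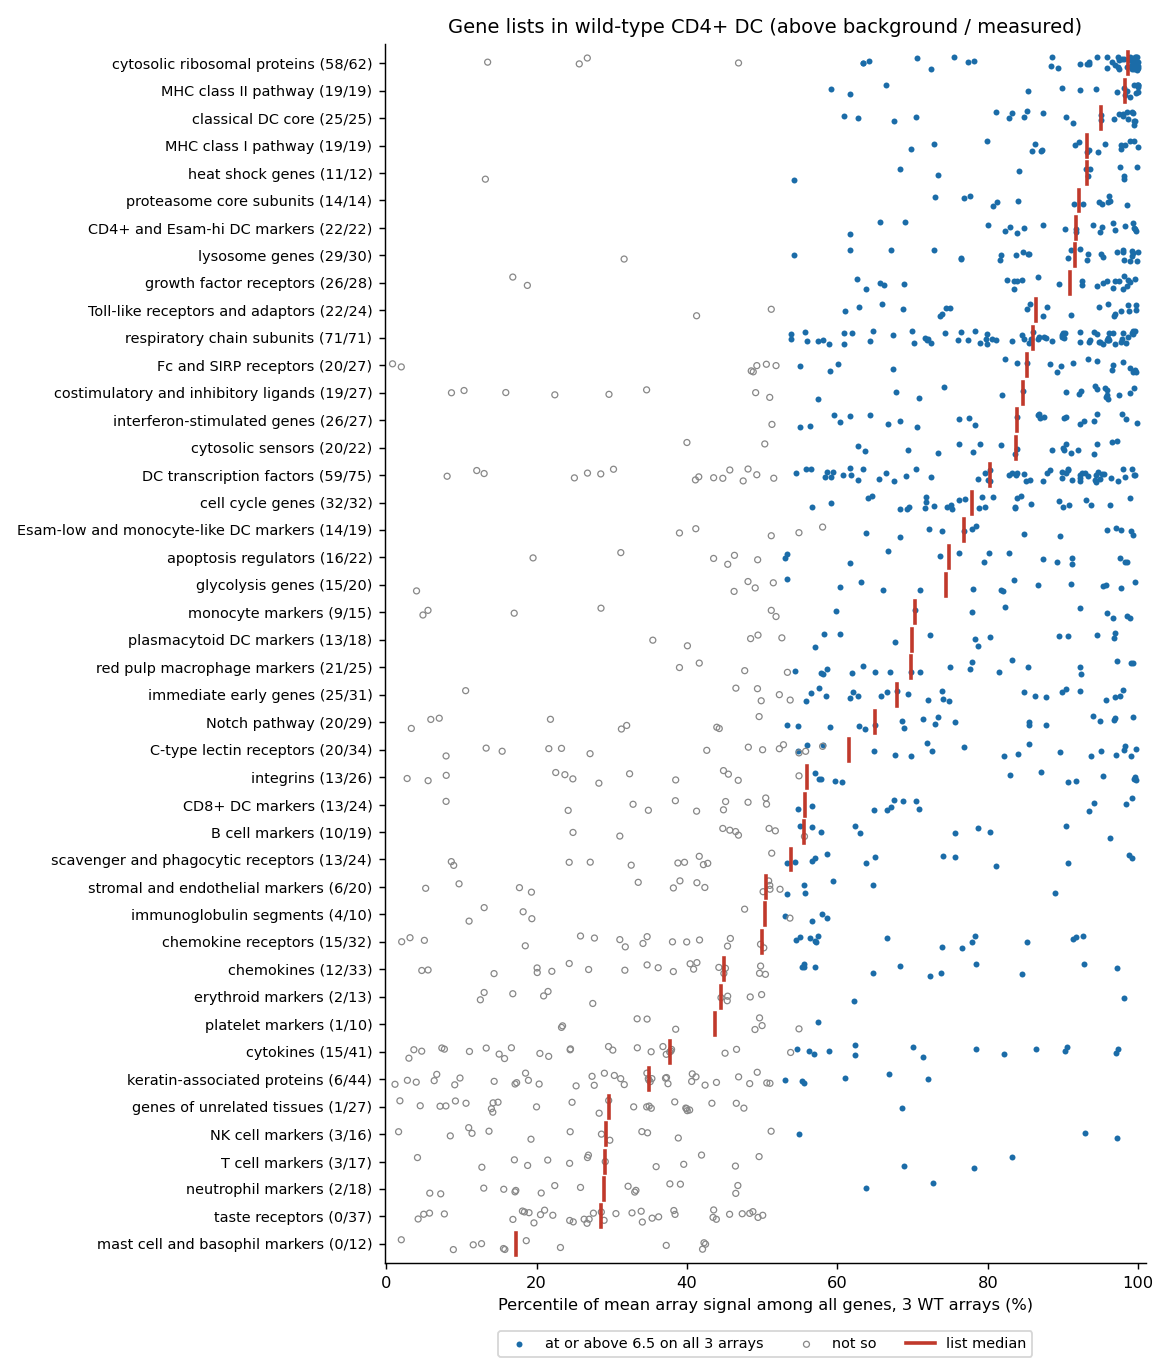
Each point is 1 gene of a fixed list, placed by the percentile of its mean signal among all 19938 genes, with filled points for genes above background in all 3 arrays and red bars for list medians. Ribosomal, MHC class II and classical DC core lists lie at the top, and lists of T cells, NK cells, neutrophils and basophils at the bottom.

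Transcription factors of the DC lineage were mostly above background. 59 of 75 listed factors were above background (78.7%, against 46.8% of all genes), and 24 were at or above the 90th percentile of signal. Rel, the NF-κB subunit c-Rel, led the list at 12.79 ± 0.03, ahead of Id2, Spi1 and Ciita. The lineage factors Bcl11a, Etv6 and Ikzf1 (Ikaros) were 11.90 ± 0.11, 11.68 ± 0.05 and 11.44 ± 0.04. Among the RUNX family and its partner, Runx1 and Cbfb stood at percentiles 92.9 and 92.3. Rbpj, the DNA-bound partner of Notch, was 11.15 ± 0.08. Klf4 was 7.83 ± 0.16 at percentile 61.6. Interferon regulatory factors ran from Irf1 at percentile 94.7 and Irf5 at 94.4 through Irf7 at 78.3 to Irf3 at 72.7 and Irf8 at 70.4. Below background on every array were Cebpb, Cebpd, Nfil3, Batf2, Id3, Gata1, Gata3, Gfi1, Foxp3 and Vdr, among 16 such genes.

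Receptors for growth factors and cytokines were mostly above background, whereas most cytokine and chemokine genes were not. 26 of 28 receptors were above background (92.9%, against 46.8% of all genes). They were led by Ifngr1 (12.91 ± 0.05), Ifnar2 (12.35 ± 0.04), the shared IL-6 family chain Il6st (12.19 ± 0.07) and Il10ra (12.15 ± 0.16). The common β chain Csf2rb, which serves GM-CSF, gave 11.62, 11.68 and 11.24. Lepr and Epor were below background on all 3 arrays. Against these receptors, 15 of 41 cytokine genes (36.6%) and 12 of 33 chemokine genes (36.4%) were above background, both below the share of all genes. Tgfb1 was 11.69 ± 0.09 and Il1b was 11.61 ± 0.23. Ltb (lymphotoxin β) was 10.56 ± 0.25, and Tnf was 9.44 ± 0.11. Il12b reached 6.5 on 2 arrays at 7.07, 6.31 and 6.84, and Il6, Il10, Il12a, Il23a and Ifnb1 were below background on all 3. Among chemokines Ccl5 was 11.66 ± 0.18, Cxcl9 9.97 ± 0.06, and Ccl3 differed between arrays at 10.81, 11.77 and 9.95. Ccl17 and Ccl2 were below background on every array, and Ccl22 was 6.98 ± 0.13.

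In the Notch pathway, 3 of the 4 receptors and 1 of the 5 ligands were above background. 20 of 29 members were above background (69.0%, against 46.8% of all genes). Notch2 gave 11.62, 11.54 and 11.54, Notch4 was 7.98 ± 0.27, Notch1 was 6.66 ± 0.16 and Notch3 was below background on all 3 arrays. Psenen, a γ-secretase subunit, was 12.61 ± 0.05 and Adam17 was 11.54 ± 0.01. The target genes Dtx1 and Hes1 were 11.02 ± 0.24 and 8.93 ± 0.33, and Heyl, Hey1 and Nrarp were below background on every array. Of the ligands Jag1 passed (9.18 ± 0.07), while Dll1, Dll3, Dll4 and Jag2 did not.

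The MHC class I pathway was above background in all 19 of 19 measured members (median percentile 93.2). The heavy chain genes H2-K1, H2-D1, H2-Q6, H2-Q7 and H2-T23 were not analysed here, so the count leaves out H2-K and H2-D, the classical class I chains. After B2m came the chaperones Canx (12.67 ± 0.09), Pdia3 (12.36 ± 0.08) and Calr (12.03 ± 0.07), and the peptide transporter subunits Tap1 and Tap2 were 11.29 ± 0.06 and 9.57 ± 0.22. Nlrc5, the class I counterpart of Ciita, was 10.70 ± 0.17. Of ligands seen by T cells, 19 of 27 were above background (70.4%, against 46.8% of all genes). The costimulators Cd80 and Cd86 gave 11.83, 11.77 and 11.61, and 11.47, 11.27 and 11.18. Cd40 was 10.80 ± 0.19, Cd274 (PD-L1) 11.35 ± 0.06, and the inhibitory receptor Havcr2 (TIM-3), which leads the list, 12.68 ± 0.12. Tnfsf4, Tnfsf9, Tnfsf18 and Cd70, ligands of the TNF family, were below background on every array.

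Sensors of microbial products were broadly present. 22 of 24 Toll-like receptors and adaptors (91.7%) were above background, and 20 of 22 cytosolic sensors (90.9%), against 46.8% of all genes. Ly86 and Cd180, the MD-1 and RP105 pair, were 13.06 ± 0.09 and 12.96 ± 0.04. Unc93b1, which carries nucleic acid receptors to endosomes, was 12.28 ± 0.08. Tlr1 was 12.21 ± 0.07 and Tlr13, a receptor for bacterial ribosomal RNA, 11.83 ± 0.05. Tlr3 was 8.55 ± 0.13 and the endotoxin receptor Tlr4 gave 8.14, 8.20 and 7.58, with its coreceptor Cd14 above 6.5 on 1 array. Tlr12 was below background on all 3 arrays. Among cytosolic sensors Sting1 was 11.65 ± 0.12 and Aim2 11.48 ± 0.04, both for DNA, Ddx58 (RIG-I) 11.08 ± 0.11 for RNA, and Cgas 8.06 ± 0.14. Nlrp1b and Nlrp6 were below background on every array.

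C-type lectin genes, which bind sugars and other ligands, spanned much of the signal range. 20 of 34 were above background (58.8%, against 46.8% of all genes), with means from 4.85 for Cd207 (langerin) to 13.08 for Cd209a. The Clec4a cluster was present as a group, with Clec4a1, Clec4a2, Clec4a3 and Clec4a4 at percentiles 99.1, 93.7, 97.0 and 98.3. Its neighbours Clec4d and Clec4e were below background on all 3 arrays. Near-identical members such as those of the Cd209 group may share probe signal. In the list of Fc, SIRP and related receptors 20 of 27 passed (74.1%, against 46.8% of all genes). The signalling chains Fcer1g (13.09 ± 0.09) and Tyrobp (12.81 ± 0.08) led it, with the inhibitory receptor Pirb at 11.90 ± 0.03. Among Fcγ receptors Fcgr4 was 10.03 ± 0.15, Fcgr2b 9.91 ± 0.74, Fcgr3 7.53 ± 0.29, and Fcgr1 reached 6.5 on 1 array. 13 of 24 scavenger and phagocytic genes passed (54.2%), near the 46.8% of all genes. Cd68 (12.51 ± 0.10) and the engulfment adaptor Elmo1 (12.24 ± 0.06) led them, and Marco, Cd163, Stab1 and Tyro3 were below background on all 3 arrays.

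Of genes for migration, 15 of 32 chemoattractant receptors were above background (46.9%), close to the share of all genes (46.8%). Ccrl2 was 10.83 ± 0.09 and Gpr183 (EBI2), which positions CD4+ DC in the bridging channels of the spleen, was 10.72 ± 0.08. Ptafr was 10.66 ± 0.09. Ccr7, which draws activated DC to T cell zones, gave 10.04, 9.77 and 10.30, and Ccr6 and Cxcr4 were 9.43 ± 0.32 and 9.25 ± 0.15. Ccr1, Ccr4, Ccr8, Cxcr2, Cxcr5 and C5ar1 were below background on every array. Integrin chains of leukocytes led their list. Itga4 was 12.94 ± 0.07, Itgb2 12.71 ± 0.03 and Itgb1 11.22 ± 0.05, whereas Itga1, Itga2, Itga3, Itga7, Itgb4, Itgb6 and Itgb8 were below background on all 3 arrays. Of the integrin list 13 of 26 were above background (50%), near the 46.8% of all genes.

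Genes of respiration, protein turnover and the lysosome were above background almost throughout. All 71 of 71 respiratory chain subunits, all 14 proteasome core subunits and 29 of 30 lysosome genes were above background, with median percentiles of 86.1, 92.1 and 91.7. Lysosomal Gm2a (13.59 ± 0.04) and Psap (13.29 ± 0.08) led the latter list, followed by Ctsa (12.66 ± 0.01) and Ctsh (12.54 ± 0.05), and Ctsk was below background on all 3 arrays. Ribosomal proteins passed for 58 of 62, with a median percentile of 98.6. The members below background were the paralogs Rpl3l, Rpl10l, Rpl39l and Rps4l. Glycolysis genes passed for 15 of 20 (75%, against 46.8% of all genes). Eno3 (11.84 ± 0.05), Slc2a3 (11.31 ± 0.12) and Ldha (11.23 ± 0.11) were high, and Ldhb, Hk3 and Eno2 were below background on every array. The kept probe set of Hk1, which led the list at 12.81 ± 0.07, was numbered on another chromosome and exceeded the other Hk1 probe set by 3.99. Of apoptosis regulators 16 of 22 passed (72.7%, against 46.8% of all genes). The survival factor Mcl1 was 12.16 ± 0.05, Bcl2 was 8.36 ± 0.08, Bcl2l1 6.67 ± 0.10, and Fas was below background on all 3.

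Cell cycle genes were present on every array. All 32 of 32 members were above background (median percentile 77.9). Mki67, found in dividing cells, gave 11.25, 11.25 and 11.71. The cyclin gene Ccna2 gave 10.80, 10.74 and 11.36. The replication clamp Pcna was 12.36 ± 0.07, Ccnb2 was 10.89 ± 0.25 and the kinase gene Cdk1 was 9.30 ± 0.39. Both Mki67 and Ccna2 were highest in WT3. That held for 31 of the 32 members, against 43.0% of all genes above background that were highest in WT3, and for 29 of 32 after quantile normalization. The mean deviation of the list from the 3-array mean was 0.30 in WT3, -0.13 in WT1 and -0.16 in WT2.

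**Figure D3:**
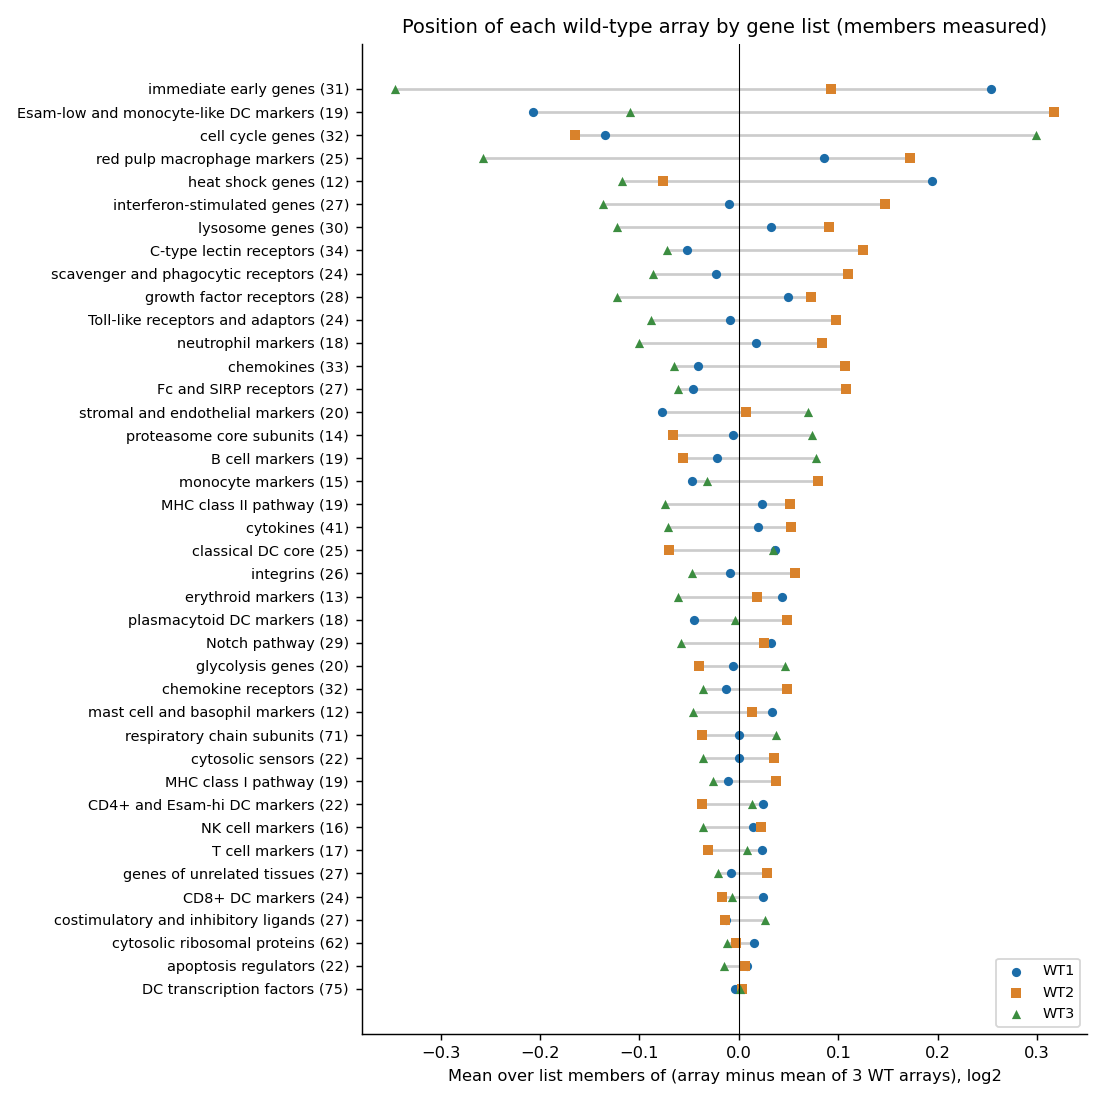
For gene lists with at least 12 measured members, the mean over members of the array's signal minus the mean of the 3 wild-type arrays (log2), with a marker for each array. The lists of olfactory, vomeronasal and taste receptors and of keratin-associated proteins are not shown. Immediate early, Esam-low, cell cycle and red pulp macrophage lists are the widest, and DC transcription factors the narrowest.

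Other lists separated the arrays in other directions. Esam-low and monocyte-like genes were highest in WT2 for 17 of 19 members, where 27.0% of all genes above background were highest, with mean deviations of 0.32 in WT2, -0.21 in WT1 and -0.11 in WT3. Counting the 14 members above background alone, 12 were highest in WT2, and genes near the floor were mostly highest there too, as 636 of 1016 olfactory receptor genes were. The chemokine gene Ccl6 gave 8.9617, 10.3754 and 8.9953. The β-glucan receptor Clec7a gave 10.23, 11.09 and 10.12. WT2 was above both other arrays in each. Interferon-stimulated genes, of which 26 of 27 were above background, were highest in WT2 for 21 of 27 members, led in level by Ifitm3 (13.14 ± 0.13), Ifi203 (12.08 ± 0.26) and Trim30a (11.89 ± 0.06). Red pulp macrophage genes were lowest in WT3 for 24 of 25 members, against 34.9% of all genes above background, with a mean deviation of -0.26 and a summed signal of 14.75, 14.81 and 14.50 in WT1, WT2 and WT3. Counting the 21 members above background alone, 20 were lowest in WT3. Genes near the floor were lowest in WT3 too, as 633 of 1016 olfactory receptor genes were. The mean deviation of DC transcription factors lay between -0.004 and 0.003, and that of the CD4+ and Esam-high markers between -0.04 and 0.02. Opposite shifts of members cancel in such a mean, so it does not show that single genes were steady. The median SD of members was 0.10 and 0.14 in these lists, against 0.09 for all genes above background. With 3 arrays that each come from another litter, litter, animal and array cannot be told apart.

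Immediate early genes, which are switched on rapidly by many stimuli, gave the widest separation of the lists with 12 or more members. 25 of 31 were above background (80.6%, against 46.8% of all genes). Fos gave 9.73, 9.05 and 6.65 in WT1, WT2 and WT3. Fosb gave 9.60, 8.51 and 6.71, and Jun gave 11.10, 10.42 and 9.34. The order WT1, WT2, WT3 from high to low was the same in all 3 AP-1 genes. Egr1 was 9.46, 9.30 and 7.81, the phosphatase gene Dusp1 was 12.37, 12.18 and 10.75, and Rgs1, a brake on chemokine receptor signals, was 12.24, 12.44 and 11.04. WT3 was lowest for 21 of the 31 members and WT1 highest for 19, and the second count was 15 after quantile normalization. Counting the 25 members above background alone, 17 were lowest in WT3 and 16 highest in WT1, against 34.9% and 30.0% of all genes above background. The list's mean deviation was 0.25 in WT1, 0.09 in WT2 and -0.35 in WT3. The separation was smaller for the nuclear receptor gene Nr4a1, at 10.83, 10.98 and 10.52, and for the antiproliferative Btg2, at 11.81, 11.59 and 11.43. Of heat shock genes, the inducible Hspa1a stood at 11.14, 9.26 and 9.39, with WT1 highest, while the endoplasmic chaperone gene Hspa5 was 11.97 ± 0.06.

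Among genes with a mean of 6.5 or more, the spread between arrays was smaller at higher signal. Median SD was 0.07 for genes with a mean under 6.5, 0.12 for genes with a mean of 6.5 to 8, 0.10 for 8 to 10, 0.08 for 10 to 12 and 0.06 for 12 and over. Of 9329 genes above background 92.2% had a range under 0.5 between the highest and the lowest array, and 86 genes (0.922%) had a range over 1. None of the 367 genes with a mean of 12 or more was among them. A further 38 genes with a range over 1 did not reach 6.5 on every array.

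**Figure D4:**
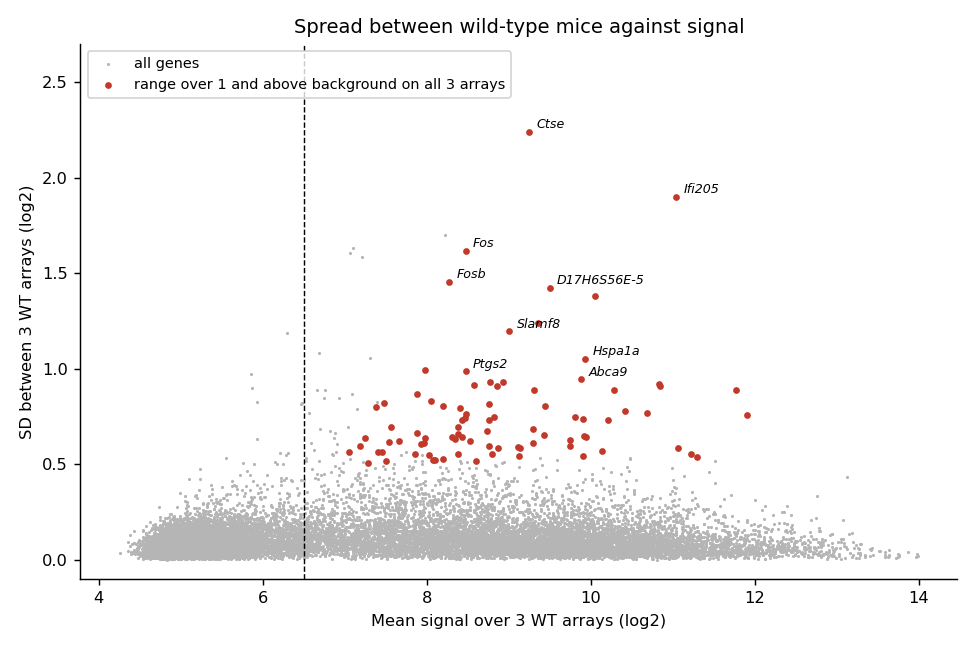
SD between the 3 wild-type arrays against mean signal (both log2) for all 19938 genes, with genes above background on all 3 arrays and a range over 1 in red and the background level dashed. The cloud is widest at middle signal and narrower at both ends, and Ctse, Ifi205, Fos and Fosb lie far above it.

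None of the 25 classical DC core genes and 1 of the 22 CD4+ and Esam-high markers (Epcam) had a range over 1. The share over all genes above background was 0.922%, at which lists of this size would hold few such genes or none. Ctse (cathepsin E), an aspartic protease of the endosomal pathway, gave 10.53, 10.56 and 6.66. Ifi205, an interferon-inducible gene of the DNA-sensor family, gave 12.09, 12.18 and 8.84. The gene D17H6S56E-5 gave 10.29, 10.35 and 7.86. WT1 and WT2 lay close together in each and WT3 far below, for ranges of 3.90, 3.34 and 2.49. Ckb, a creatine kinase, was the reverse case for WT2, at 10.85, 8.45 and 10.83. Olfr432, annotated as an olfactory receptor, gave 9.98, 10.15 and 7.93, and Slamf8 gave 9.84, 9.54 and 7.64. Among the remaining genes of the 15 widest, Ptgs2 (cyclooxygenase 2), Abca9, Mid1 and Ccl3 were highest in WT2 and Socs2 and AI506816 lowest in WT2, with ranges of 1.82 to 1.97. For Ptgs2 the values were 8.47, 9.46 and 7.49, spaced almost evenly.

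**Figure D5:**
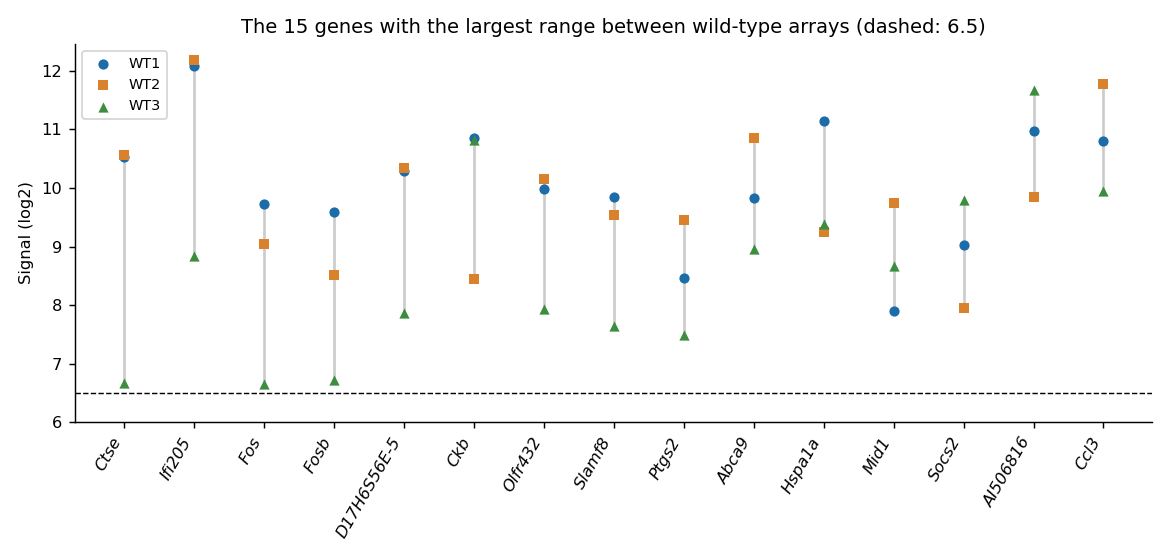
Signal (log2) on each wild-type array for the 15 genes above background with the largest range between arrays, with a line from the lowest to the highest array and background dashed. WT3 is lowest for Ctse, Ifi205, Fos, Fosb, D17H6S56E-5, Olfr432, Slamf8, Ptgs2, Abca9 and Ccl3, WT2 for Ckb, Hspa1a, Socs2 and AI506816, and WT1 for Mid1.

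By the array farthest from its nearest neighbour, WT3 was apart and low for 31 of the 86 genes and high for 17, WT2 high for 16 and low for 12, and WT1 high for 5 and low for 5. Against 0.922% of all genes above background, a range over 1 was found for 7 of 25 immediate early genes, 3 of 14 Esam-low genes, 3 of 12 chemokines, 2 of 13 CD8+ DC genes, 2 of 14 olfactory receptor genes and 2 of 4 immunoglobulin segments above background. Several lay side by side on a chromosome. Of 80 that could be placed in gene order among genes above background, 33 (41.2%) had another of the 86 within 10 genes, compared with 13.9% of all 9044 placed genes. For 18 of the 33 the neighbour had the same array apart on the same side. Ifi205, Olfr432, Olfr433 and Slamf8 formed 1 such run, all low in WT3, and D17H6S56E-5 with Vars another. Ccl3, Ccl6, Ccl9 and Slfn8 formed a run that was high in WT2. Duplicated neighbours can share probe signal, so neighbours are not taken as independent genes. Whether any of these neighbours share probe signal was not tested, nor was any other reason for the runs.

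Promoters of the genes above background differed in letter content from those of the other genes. RefSeq windows were matched for 15614 measured genes. The median number of CG pairs in the window was 22 for 7598 genes above background, 6 for 8016 genes that were not, and 23 for 1648 genes at or above the 90th percentile of signal. TATAAA was found in 6.46% of the windows of genes above background and in 17.4% of the others, TGACGT in 12.98% and 5.83%, and GATTGG in 21.7% and 15.3%. The printed windows of H2-Aa, H2-Eb1, H2-Eb2, H2-Ob and H2-Oa held 0 to 3 CG pairs and that of B2m held 14. These shares describe letters in the windows.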

How the data were processed

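Signal was taken from 3 wild-type arrays of an Affymetrix mouse ST 1.0 series (exon arrays per the study's methods, gene arrays per the platform annotation) of sorted splenic CD4+ DC. The deposited log2 values were made by the authors with RMA and GC correction in Partek; the labels' processing notes name mm9. Arrays came from separate litters, and their number limits the precision. No values were normalized again. Genes were named from the platform annotation, with 1 probe set per gene, the one with the highest mean. Of 35399 probe sets, 1621 with several symbols and 11989 with none were left out. A gene at or above 6.5 on each array was called above background, and spread was given as SD and range. No groups were compared and no p-value is given.

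Named genes were the 20 with the highest mean, the 5 sample markers, up to 4 highest members above background and up to 3 well-known members of each list, the 15 with the largest range, and all members above background where an other-cell or unrelated-tissue list had 5 or fewer. Further genes were chosen after their values were seen. Members and lists were chosen with earlier results of these data known. Alternatives were other background levels, probe set rules and normalizations, a one-sided limma call, and each array left out; those on probe sets numbered on another chromosome, and on the array in which list members were highest or lowest, were chosen after seeing the data. The limma step was tested on simulated data. Python 3.11.15, pandas 2.3.3, numpy 2.4.6, matplotlib 3.10.9, R 4.3.3 and limma 3.58.1 were used.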

Additional observations from a re-analysis of the deposited data

How the results depend on the processing

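The number of genes above background was 9329 and ran from 8709 at a background of 7 to 10559 at the 95th percentile of olfactory and vomeronasal receptor genes (5.80). A single array at or above 6.5 gave 9719 and limma's one-sided test 9278. Of the list counts under all alternatives, 490 stayed within 1.5 times the reported count and 16 did not, all in lists of other cells, receptors of other tissues, keratin-associated proteins or immunoglobulin segments. At a background of 7, stromal genes fell to 3, olfactory receptors to 7, keratin-associated proteins to 3 and immunoglobulin segments to 0. At the receptor percentile the counts were 4 erythroid, 4 platelet, 11 stromal, 2 unrelated-tissue, 36 olfactory, 8 vomeronasal, 5 taste and 11 keratin-associated genes. With 1 array sufficient they were 3 platelet, 10 stromal and 2 vomeronasal genes. Without WT replicate 1 the platelet count was 2, against 1 reported. The number of genes with a range over 1 was 86, with 39 at a background of 8, 124 with no filter, 91 after quantile normalization and 94 after centring. Leaving out 1 array gave 24 to 70, with 70 without WT1, 37 without WT2 and 24 without WT3, and a range over fewer arrays can only be smaller. Signal percentiles of named genes moved by less than the spread between arrays in 165 cases and by more in 90. These cases include a ranking among genes above background alone, which lowers percentiles by construction. The 90 are therefore not all effects of processing. Red pulp, Esam-low, cell cycle and interferon-stimulated counts by array stayed within 1.5 times the reported value under the 4 alternatives run. No paired analysis was possible because no groups were compared. Values near 6.5 cannot separate a low level from background on these arrays.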

Other observations

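Probe sets outside the gene list also carried signal. Of 11989 with no gene symbol, 6258 (52.2%) were above background on all 3 arrays, 296 had a mean of 12 or more and 148 of those above background had a range over 1. Of 1621 with several symbols, 814 (50.2%) were above background. Among genes with several probe sets, 201 of 999 had probe sets that differed by more than 2, and the median difference was 0.638.

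Some genes with a wide range crossed the background level. Trim30d, of the interferon-inducible TRIM30 cluster, gave 8.96, 6.28 and 9.43 in WT1, WT2 and WT3, with WT2 alone below 6.5.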
